A study of Arabidopsis thaliana with 9 samples.

Results

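GI (GIGANTEA, AT1G22770), AGL24 (AGAMOUS-LIKE 24, AT4G24540) and SNZ (SCHNARCHZAPFEN, AT2G39250) are a circadian clock gene and a pair of flowering-time genes of Arabidopsis thaliana. They were chosen with earlier results of these data known and taken by name from the array annotation. The annotation gave each of the 3 genes 1 probe set (264211_at, 254130_at and 267010_at), among 13356 genes named by probe sets with a single gene. RNA came from whole rosettes harvested 15 days after sowing from the F1 hybrid of C24 and Col (written C24 x Col by the submitters), from the inbred accession C24 and from the inbred accession Col-0, called Col here. Each of the 3 groups had 3 biological replicates, and each of the 9 samples was hybridised to its own one-colour Affymetrix array. All plants grew on Murashige and Skoog agar at 22 °C in a 12 h photoperiod, with no treatment in any group. Which parent bore the seed, how many plants made up a sample and the time of day at harvest were not stated in the labels.

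GI is a large plant-specific protein whose transcript cycles over the day and peaks towards evening. It stabilises the F-box photoreceptor ZTL and, with FKF1, promotes removal of the CDF repressors, which permits transcription of CO and then of the florigen gene FT. AGL24 is a MADS-box transcription factor that acts with SOC1 at the shoot apex to promote flowering. SNZ is an AP2-type transcription factor, a target of miR172, that delays flowering together with its relative SMZ. Because GI cycles, a level taken at 1 harvest is a level at 1 unrecorded time of day.

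Signals are MAS5 values on a linear scale, 1 per probe set and array, and group values are means ± SD over the 3 arrays of a group. Arrays correlated at 0.977 to 0.983 within groups, across the 13648 probe sets tested, which are not independent replicates. Across groups the correlation was 0.939 to 0.952 for F1 with C24, 0.947 to 0.961 for F1 with Col and 0.895 to 0.902 for C24 with Col. Differences are log2 differences from limma, fitted to all 9 arrays, with Benjamini-Hochberg adjustment over the 13648 probe sets and a threshold of 0.05. All 3 genes passed the filter, a mean signal of 89.9, in the average over all arrays. An exact permutation test of 3 against 3 arrays cannot go below p = 0.1, so the calls rest on the spread that limma shares among probe sets. The precision is limited by the number of arrays.

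GI stood higher in C24 and in F1 than in Col. Its signal was 666, 874 and 891 on the F1 arrays, 825, 917 and 916 on the C24 arrays and 533, 544 and 597 on the Col arrays. Every F1 and every C24 array lay above every Col array, while F1 and C24 overlapped. The means were 810.5 ± 125 in F1, 886 ± 52.6 in C24 and 558 ± 33.9 in Col. C24 exceeded Col 1.59-fold (95% interval 1.32 to 1.91; log2 difference 0.67, SE 0.13, adjusted p = 0.000798). F1 exceeded Col 1.44-fold (interval 1.20 to 1.74; log2 difference 0.53, SE 0.13, adjusted p = 0.0127). The F1 call did not survive leaving out F1 replicate 2 (0.47, adjusted p = 0.0595), F1 replicate 3 (0.45, with 0.0566) or Col replicate 2 (0.51, with 0.0502), and the direction stayed the same in each.

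F1 and C24 were not separated for GI. The log2 difference of F1 from C24 was -0.14, with a 95% interval of -0.41 to 0.13 (adjusted p = 0.518), so a GI level in F1 down to 0.754 of that in C24 lay within the interval. Replicates of F1 were the least uniform, with a coefficient of variation of 15.5%, against 5.93% in C24 and 6.08% in Col. F1 replicate 1 was the low array of its group, at 666, and lay below the mid-parent level of 722, while the other F1 arrays lay above it.

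AGL24 ran the opposite way, lower in C24 and in F1 than in Col. Its signal was 139, 114 and 144 on the F1 arrays, 183, 132 and 136 on the C24 arrays and 286, 219 and 234 on the Col arrays. Again neither F1 nor C24 overlapped Col, and F1 overlapped C24. The means were 132 ± 16.0 in F1, 150.1 ± 28.4 in C24 and 246 ± 34.9 in Col. C24 stood at 0.607 of the Col level (interval 0.451 to 0.818; log2 difference -0.72, SE 0.20, adjusted p = 0.0131). F1 stood at 0.538 of it (interval 0.399 to 0.724; log2 difference -0.89, SE 0.20, adjusted p = 0.00895). Col replicate 1 and C24 replicate 1 each had the highest signal of their group, at 286 and 183. Without Col replicate 1 both calls were lost, at -0.61 for C24 (adjusted p = 0.0649) and -0.78 for F1 (adjusted p = 0.0521). Without C24 replicate 2 the call of C24 was lost (-0.63, adjusted p = 0.0525).

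The level of AGL24 in F1 was not separated from that in C24. The log2 difference was -0.17, with an interval of -0.60 to 0.26 (adjusted p = 0.630). Of the 9 pairs of an F1 and a C24 array, F1 was the higher in 4. In whole rosettes, a smaller share of the cells that express AGL24 and less AGL24 RNA per cell cannot be told apart. No probe sequences were used, so whether the 1 probe set of each gene matches C24 and Col RNA equally was not tested.

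SNZ was higher in C24 than in Col, and F1 lay between. Its signal was 351, 288 and 420.2 on the F1 arrays, 493, 584 and 390.3 on the C24 arrays and 309.7, 314 and 265 on the Col arrays. C24 did not overlap Col, whereas the F1 arrays overlapped both parents, since F1 replicate 2 fell among the Col arrays and F1 replicate 3 above the lowest C24 array. The means were 353 ± 65.9 in F1, 489 ± 96.7 in C24 and 296 ± 27.2 in Col. C24 exceeded Col 1.63-fold (log2 difference 0.71, SE 0.17, interval 0.34 to 1.07, adjusted p = 0.00535). This call held without any single array, with log2 differences of 0.57 to 0.86.

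F1 was not called against either parent for SNZ. Against Col the log2 difference was 0.24, with an interval of -0.13 to 0.61 (adjusted p = 0.417). Against C24 it was -0.47, with an interval of -0.83 to -0.10 (unadjusted p = 0.0157, adjusted p = 0.0846). Without C24 replicate 3, the lowest of the C24 arrays, F1 passed the threshold against C24 (-0.62, adjusted p = 0.0370). F1 varied by 18.7% and C24 by 19.8% (coefficient of variation), against 9.18% in Col.

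**Figure D1:**
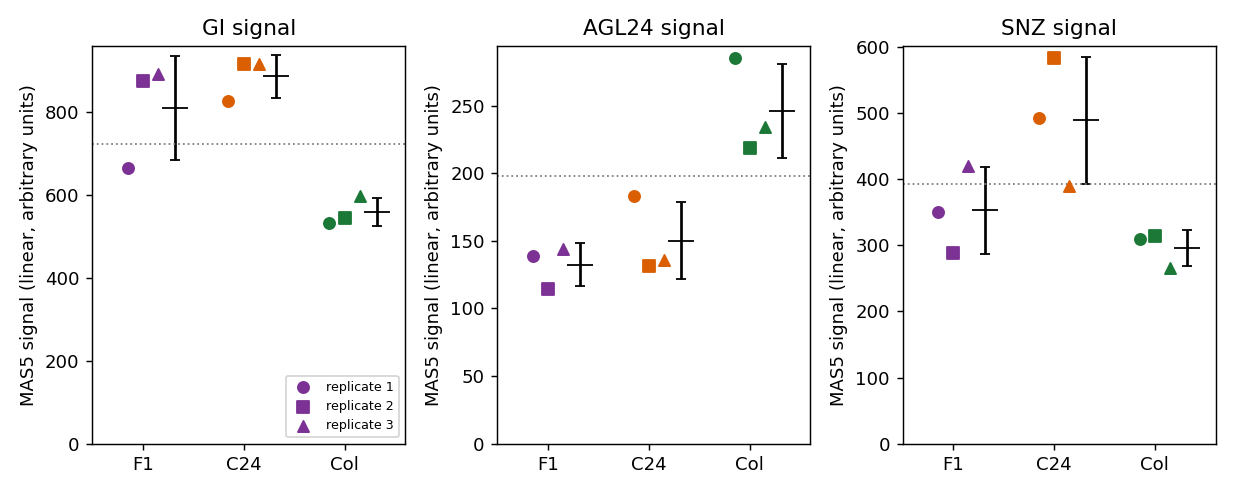
MAS5 signal (linear scale from 0, arbitrary units) of GI, AGL24 and SNZ on each of the 9 arrays, with marker shape for the replicate number, the mean ± SD of 3 arrays as a bar beside each group and the mid-parent level as a dotted line. GI is higher and AGL24 lower on all F1 and C24 arrays than on all Col arrays, and SNZ in F1 overlaps both parents.

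Set against all probe sets, the differences between the parents were common ones. The 3 genes were chosen with earlier results of these data known. The shares over all probe sets, here and below, therefore give scale only, and an excess of calls among the 3 was not tested. All 3 genes were called between C24 and Col, with 2 higher and 1 lower in C24, where 30.9% of the probe sets tested were called in either direction, 15.7% as higher and 15.2% as lower. After median centring of the arrays those shares turned towards lower calls (1614 higher and 2605 lower, against 2139 and 2081 as deposited), while the 3 genes kept their directions and calls. The groups did not overlap for all 3 genes, as for 45% of the probe sets. A larger absolute difference than that of GI was seen in 15.9% of the probe sets, than that of AGL24 in 14.1% and than that of SNZ in 14.5%.

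For F1 against Col, 2 of 3 genes were called, GI higher and AGL24 lower, against 11.5% of the probe sets (6.37% higher and 5.08% lower). The groups did not overlap for these genes, as for 29% of the probe sets. AGL24 lay further out in this comparison, with a larger absolute difference in 3.34% of the probe sets, against 11.3% for GI and 39.0% for SNZ. For F1 against C24, 0 of 3 genes were called in limma, and 1 (SNZ) had an unadjusted p under 0.05, where 14.3% of the probe sets were called, 7.55% as higher and 6.75% as lower (1030 and 921, and 1243 and 722 after median centring). The arrays of F1 and C24 overlapped for all 3 genes, and 32.9% of the probe sets had no overlap. F1 against Col and C24 against Col share the Col arrays, so a high or low Col mean moves both differences of a gene together.

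**Figure D2:**
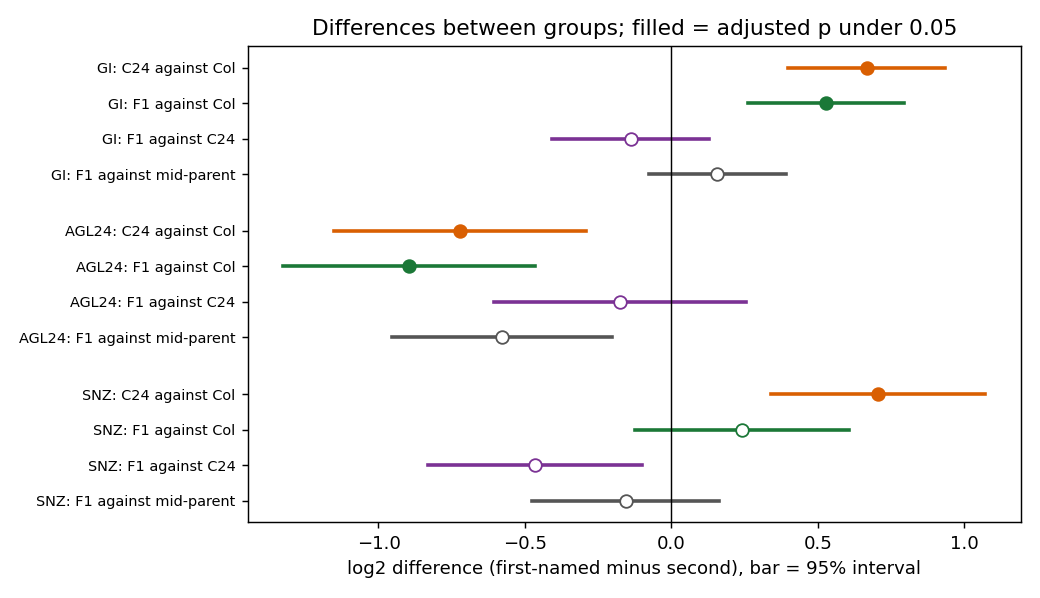
Log2 differences of GI, AGL24 and SNZ in the comparisons named at the left, first-named group minus second, with 95% intervals from limma; filled points have an adjusted p under 0.05. The 3 filled points for C24 against Col and the 2 for F1 against Col (GI at 0.53 and AGL24 at -0.89) lie away from 0, and all points for F1 against C24 or the mid-parent are open.

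The 3 genes thus had different combinations of calls. GI was called higher than Col in both C24 and F1 with no call between F1 and C24, as were 445 probe sets (3.26%). AGL24 was called lower than Col in both C24 and F1 with no call between F1 and C24, as were 350 probe sets (2.56%). SNZ was called higher in C24 than in Col with no call of F1 against either parent, as were 932 probe sets (6.83%).

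F1 was next placed between its parents on the linear scale, where the Col mean is 0, the C24 mean is 1 and an additive F1 lies at 0.5. For GI the 3 F1 arrays lay at 0.329, 0.964 and 1.02, with a mean of 0.770 ± 0.382. Replicates 2 and 3 were thus at the C24 level, and replicate 1 was nearer Col. For AGL24 they lay at 1.12, 1.38 and 1.06, with a mean of 1.19 ± 0.166, so that every F1 array was beyond the C24 mean as seen from Col. For SNZ they lay at 0.284, -0.0417 and 0.643, with a mean of 0.295 ± 0.342. The SNZ arrays spread from the Col mean to past the additive level, and the mean was 0.121 without F1 replicate 3 and 0.463 without F1 replicate 2. On the log2 scale the means were 0.79, 1.24 and 0.34 for GI, AGL24 and SNZ. With 3 F1 arrays these positions were not tested.

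The positions were set against those of all probe sets called between the parents. Over the 2081 probe sets called lower in C24 the median position was 0.521, the quartiles were 0.314 and 0.714, and 2.07% lay beyond AGL24. Over the 2139 called higher in C24 the median was 0.399, with quartiles of 0.211 and 0.641. Of these, 18.0% lay beyond GI and 64.0% beyond SNZ, whose own position moved with the F1 arrays as given above. Without C24 replicate 1 the position of AGL24 was 1.01, at the C24 mean.

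**Figure D3:**
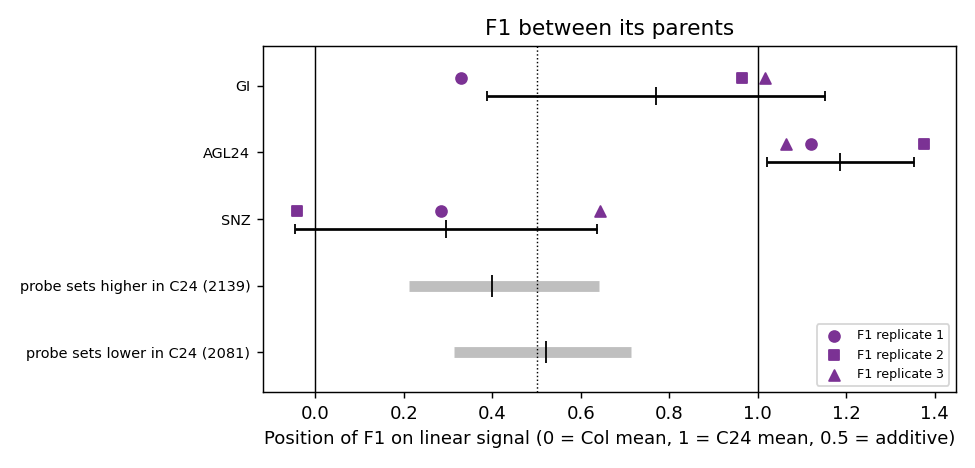
Position of F1 on linear signal (0 is the Col mean, 1 the C24 mean, the dotted line the additive 0.5) for each F1 array of GI, AGL24 and SNZ, with mean ± SD as bars; the grey bars give the quartiles and the ticks the medians of probe sets called between the parents. AGL24 lies at 1.06 to 1.38, GI at 0.329 to 1.02 and SNZ at -0.0417 to 0.643.

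Against the mid-parent level, 0 of 3 genes were called in limma, and 1 (AGL24) had an unadjusted p under 0.05, where 3.3% of the probe sets were called, 1.68% as higher and 1.62% as lower. GI differed by 0.16 (interval -0.08 to 0.39, adjusted p = 0.518) and SNZ by -0.16 (interval -0.48 to 0.16, adjusted p = 0.653). AGL24 stood at 132 ± 16.0 in F1 against a mid-parent level of 198, a log2 difference of -0.58 with an interval of -0.96 to -0.20 (unadjusted p = 0.00504, adjusted p = 0.0948). Its adjusted p ran from 0.0678 to 0.281 over 17 alternatives, so it passed in none of them, and 3.48% of the probe sets had a larger absolute difference. F1 was beyond both parents for 0 of 3 genes in limma, also at an unadjusted p under 0.05, and was so for 0.506% of the probe sets, 0.403% above and 0.103% below both.

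Other genes of the clock and of flowering were counted from 7 lists of 178 genes, chosen with earlier results of these data known. The annotation named 21 of the 178 by symbol, GI, AGL24 and SNZ included, and 7 of these were below the filter, which left 11 others tested. Of the rest, 5 were annotated by locus code alone and were not counted. The other 152 had no probe set annotated to that gene alone and were not analysed here. In the clock list 3 of 41 genes were tested, and in the list of photoperiod and florigen genes 0 of 30. CCA1, LHY, TOC1, CO, FT, FLC and SOC1 were among the list genes not tested. Of the 11 other genes, 0 were called between C24 and Col in limma, against 30.9% of all probe sets tested, and 0 had an unadjusted p under 0.05. Their median absolute difference was 0.20, against 0.25 over all probe sets tested. With GI, AGL24 and SNZ put back, 2 of 14 were called higher in C24 and 1 lower, with a median absolute difference of 0.24. These 3 were the only ones of the 14 called, so setting them aside left 0, and no trait of the 11 was tested. Between F1 and Col 2 of 11 were called, 1 higher and 1 lower, against 11.5% of all (median absolute difference 0.18, against 0.18 over all). Between F1 and C24 1 of 11 was called, as higher, against 14.3% of all (0.09 against 0.19). Against the mid-parent 2 of 11 were called, 1 higher and 1 lower, against 3.3% of all (0.22 against 0.13).

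The clock list had GI, XCT and TIC tested. XCT (AT2G21150), a nuclear protein that sets clock period, had a higher mean signal in F1 than in either parent. Its signal was 282, 377 and 205 on the F1 arrays, 136, 189.7 and 189.8 on the C24 arrays and 159, 136 and 182 on the Col arrays. Every F1 array lay above all 6 parental arrays, though F1 replicate 3 did so by a small margin. Taking each parent alone, all F1 arrays lay above all Col arrays for 14.4% of the probe sets tested, and above all C24 arrays for 15.7%. The log2 difference was 0.82 from Col (adjusted p = 0.0295), 0.72 from C24 (adjusted p = 0.0476) and 0.77 from the mid-parent (adjusted p = 0.0458), and the test of F1 beyond both parents gave an adjusted p of 0.531. These calls sat close to the threshold, and none passed with no filter on dim probe sets (adjusted p = 0.0642, 0.0957 and 0.0985). None passed with no intensity trend either (adjusted p = 0.0529, 0.0708 and 0.0880). With only the groups compared, the call against C24 was lost (adjusted p = 0.0616). Without F1 replicate 2, the highest array, the differences were 0.61 from Col, 0.50 from C24 and 0.55 from the mid-parent (adjusted p = 0.143, 0.196 and 0.232). The call against Col was also lost without F1 replicate 1, Col replicate 1 or Col replicate 2 (adjusted p = 0.0735, 0.0711 and 0.115), and the call against C24 was lost without any array but F1 replicate 3. The call against the mid-parent was also lost without F1 replicate 1, C24 replicate 1 or 3, or Col replicate 1 or 2 (adjusted p = 0.127, 0.0988, 0.0569, 0.0729 and 0.0929). TIC, a nuclear regulator of the clock, differed by -0.04 between F1 and Col and by -0.08 between C24 and Col, with no call.

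In the light-input list HYH (AT3G17609), a bZIP transcription factor related to HY5, was lower in F1 than in Col. It stood at 132, 124 and 150.4 on the F1 arrays, 190.0, 193 and 198 on the C24 arrays and 314, 241 and 186 on the Col arrays. F1 overlapped neither parent, and the Col arrays had the widest spread. With each parent taken alone, F1 did not overlap Col for 29% of the probe sets tested, or C24 for 32.9%. F1 differed by -0.84 from Col (adjusted p = 0.0128), by -0.69 from the mid-parent (adjusted p = 0.0415) and by -0.52 from C24 (adjusted p = 0.0986). The test of F1 beyond both parents gave an adjusted p of 0.986. Without Col replicate 1, the highest array, the call against Col was lost (-0.65, adjusted p = 0.0722), and the call against the mid-parent was lost without any single array except Col replicate 3. The call against the mid-parent was also lost with no filter (adjusted p = 0.0979) and with no intensity trend (adjusted p = 0.0509). SPY, the O-fucosyltransferase that binds GI, gave 326, 257 and 221 on the F1 arrays, 239, 234 and 306 on the C24 arrays and 349, 281 and 263 on the Col arrays, with no call.

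SMZ (AT3G54990), the relative of SNZ that also represses flowering, had no call. It stood at 108 ± 21.3 in F1, 99.0 ± 16.3 in C24 and 124 ± 41.8 in Col, and its difference between C24 and Col was -0.27 (interval -0.91 to 0.37, adjusted p = 0.548). Its signal lay near the filter, and the difference between C24 and Col was not set against that of SNZ in a test. AGL18, a MADS-box floral repressor, stood at 191 ± 57.9 in F1, 183 ± 31.9 in C24 and 131 ± 8.27 in Col, with a difference of 0.47 between C24 and Col (adjusted p = 0.134) and 0.51 between F1 and Col (adjusted p = 0.171).

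No call was made for FY and LD, which promote flowering through the autonomous pathway, for the gibberellin receptor genes GID1A and GID1C, or for SLY1, the F-box gene of gibberellin signalling. The 7 genes below the filter were COR27, FIO1, FD, ATC, AGL19, AGL42 and GID1B, with signals of 1.23 to 113 over all arrays. FD, the bZIP partner of FT, gave 40.9, 37.0 and 73.4 on the F1 arrays, 77.4, 71.8 and 79.8 on the C24 arrays and 69.0, 46.3 and 9.40 on the Col arrays. These genes were left out of the main tests. With no filter, FD differed by 1.29 between C24 and Col (adjusted p = 0.216). It differed by 0.63 between F1 and Col (adjusted p = 0.685) and by -0.66 between F1 and C24 (adjusted p = 0.656), with no call in limma. Between C24 and Col with no filter, AGL42 (-1.91), ATC (-1.79) and AGL19 (1.70) differed by more than FD. Their adjusted p in limma was 0.328, 0.270 and 0.225, so none was called.

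**Figure D4:**
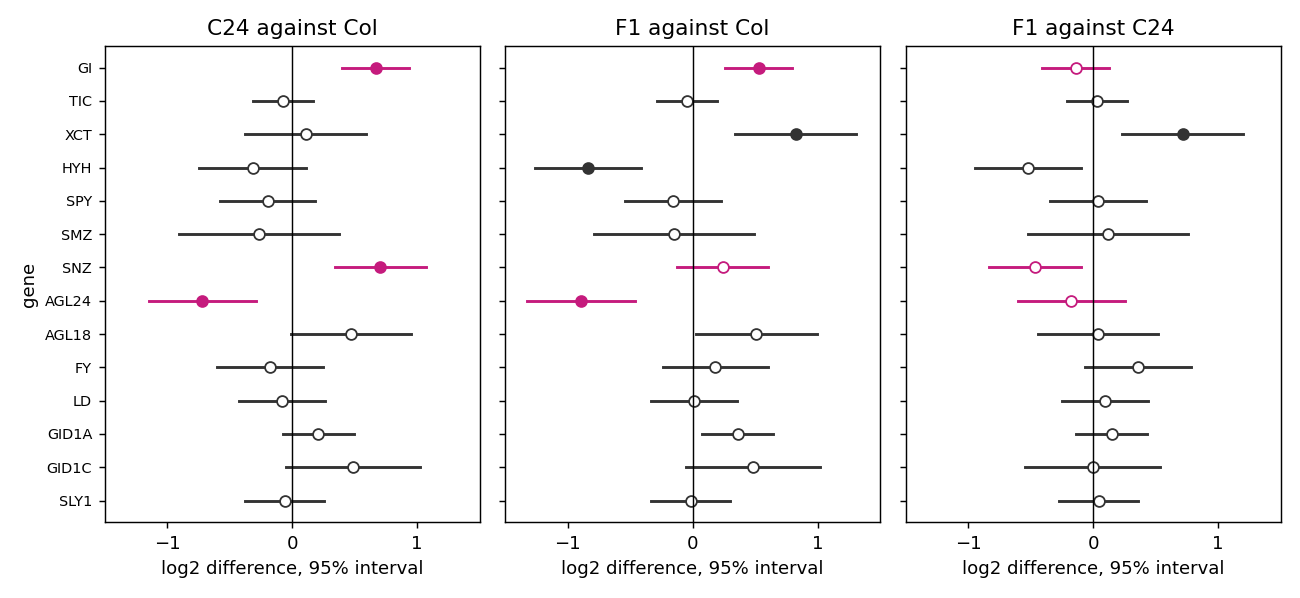
Log2 differences with 95% intervals for the 14 clock and flowering genes tested, in C24 against Col, F1 against Col and F1 against C24; filled points have an adjusted p under 0.05, and GI, AGL24 and SNZ are in pink. Only these 3 genes are filled for C24 against Col, and XCT (0.82) and HYH (-0.84) are filled beside GI and AGL24 for F1 against Col.

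Markers of organs were read on the same arrays. Of 11 green-leaf genes the annotation named 5, and RCA, the activase of Rubisco, gave 30458 to 41461 over all arrays. LHCB4.2, an antenna protein gene, stood at 28706 ± 522 in F1, 21505 ± 892 in C24 and 30716 ± 1643 in Col, and fell in C24 relative to Col (-0.51, adjusted p = 2.30e-05). PRK (-0.23, adjusted p = 0.0377) and SBPASE (-0.20, adjusted p = 0.0401) also fell in C24, and LHCB4.3 fell in F1 relative to Col (-0.37, adjusted p = 0.0209). These 3 calls were lost without 1 or another array, for PRK without Col replicate 3, C24 replicate 1 or C24 replicate 2 (adjusted p up to 0.158), for SBPASE without Col replicate 2 or 3 or any C24 array (up to 0.146) and for LHCB4.3 without Col replicate 1 or 2 or F1 replicate 2 or 3 (up to 0.0903). With quantile normalization PRK differed by -0.08 (adjusted p = 0.455) and SBPASE by -0.07 (adjusted p = 0.454), and with no filter their adjusted p was 0.156 and 0.143. With no intensity trend the calls of PRK, SBPASE and LHCB4.3 were lost too (adjusted p = 0.142, 0.148 and 0.0567). LHCB4.3 was also called below the mid-parent (-0.33, adjusted p = 0.0456), which 7 of 18 alternatives kept. LHCB4.2 was called higher in F1 than in C24 (0.42, adjusted p = 0.000468), which all 18 alternatives kept. The summed signal of the 5 genes was 101741 to 102975 in F1, 85329 to 88686 in C24 and 100829 to 116215 in Col, and no marker was at 0 on any array. Of 8 floral-organ genes 1 was named, UFO, with 102, 47.4 and 17.5 on the F1 arrays, 13.7, 12.0 and 4.58 on the C24 arrays and 6.13, 13.1 and 55.1 on the Col arrays. Of 5 shoot-meristem genes 1 was named, CLV3, with 1.67 to 49.1 over all arrays, so both apex markers were below the filter. Of 6 root genes 1 was named, PYK10, which also marks endoplasmic reticulum bodies. It stood at 1985 ± 143 in F1, 92.0 ± 40.5 in C24 and 2726 ± 219 in Col, and fell in C24 relative to Col (-4.98, adjusted p = 2.96e-10). F1 exceeded C24 by 4.53 (adjusted p = 3.37e-09). The part of these markers in the results for GI, AGL24 and SNZ was not tested.

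The genes whose pattern was most like each of the 3 were taken by Pearson's r of log2 signal over the 9 arrays, among 7353 other probe sets with 1 gene. The value of r takes in differences among the 3 groups and differences among the arrays of a group. These parts were not separated, and no test was made. The genes were picked by r on these same arrays, so calls and low arrays that they share with the member follow from the pick. For GI the 5 genes were AT2G30930 (0.993), HIS1-3 (0.986), AT2G16710 (0.970), AT1G28140 (0.969) and WLIM1 (0.963), and 90 probe sets had an r above 0.9. HIS1-3 encodes a linker histone and WLIM1 an actin-binding LIM-domain protein. HIS1-3 gave 376, 912 and 846 on the F1 arrays, 720.2, 765 and 739 on the C24 arrays and 202, 203 and 249 on the Col arrays. In all 5, as in GI, F1 replicate 1 was the lowest F1 array. All 5 were called higher in C24 and in F1 than in Col, with 0 called between F1 and C24 in limma. Of all probe sets tested, 3.26% had these calls.

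For AGL24 the most alike were psaI (0.961), AT3G16660 (0.949), AT3G07090 (0.945), AT5G62960 (0.940) and AT1G12020 (0.932), and 27 probe sets had an r above 0.9. psaI, a chloroplast-encoded subunit of photosystem I, varied far less than AGL24, with 12049 ± 103 in F1, 12421 ± 526 in C24 and 13760 ± 73.3 in Col. AT3G16660 was of similar range to AGL24, with 138 ± 36.2 in F1, 136 ± 17.2 in C24 and 264 ± 19.3 in Col. Of the 5, 2 were called lower than Col in both C24 and F1, with no call between F1 and C24. Of all probe sets tested, 2.56% had these calls.

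For SNZ they were AT5G61190 (0.940), AT5G11900 (0.928), AT1G69800 (0.927), MAP1A (0.919) and AT2G25310 (0.917), and 9 probe sets had an r above 0.9. MAP1A encodes a methionine aminopeptidase and stood at 870 ± 97.3 in F1, 1032 ± 84.9 in C24 and 707 ± 22.4 in Col. All 5 were called higher in C24 than in Col, and 0 of 5 were called in limma between F1 and either parent. Of all probe sets tested, 6.83% had these calls.

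**Figure D5:**
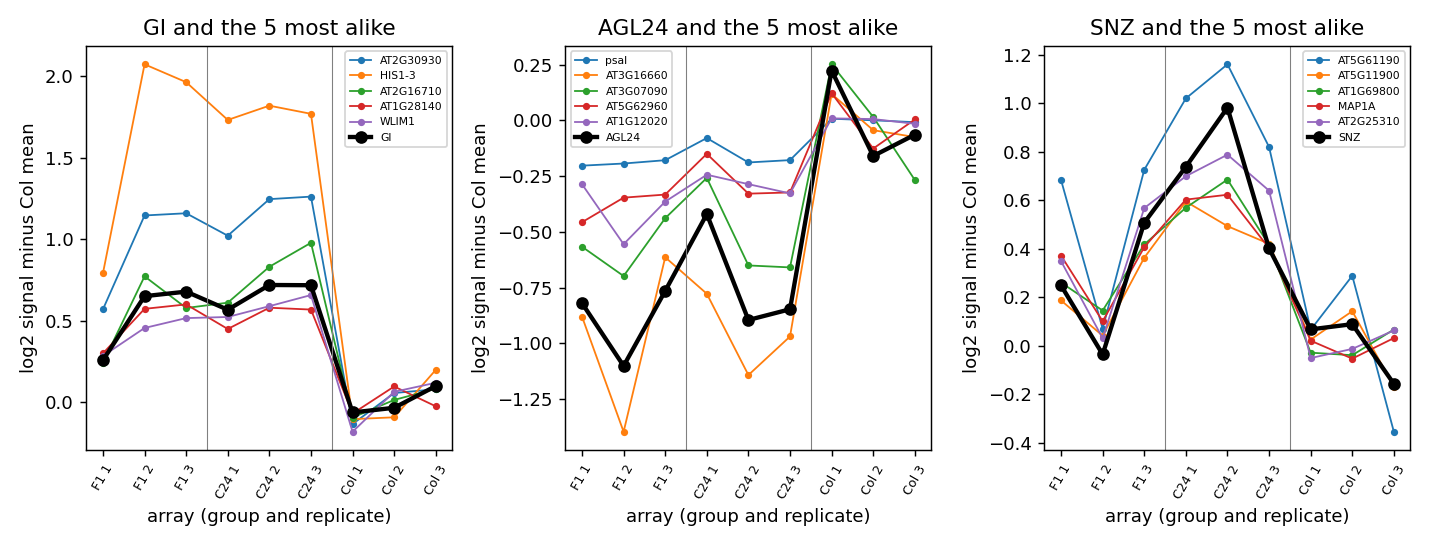
Log2 signal minus the Col mean on each array (F1, C24 and Col, replicates 1 to 3; lines only join the points of a gene) for GI, AGL24 and SNZ in black and the 5 genes with the highest r to each. F1 replicate 1 is the low F1 array for GI and its 5 genes, and F1 replicate 2 is the low F1 array for SNZ and its 5 genes.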

How the data were processed

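Transcripts were measured in F1, C24 and Col rosettes (3 arrays each). The deposited values are intensity values on a linear scale; per the submitters' processing notes the authors used MAS5, with no version or settings stated in the sources used here. The 2%-trimmed mean was 500.049 to 500.054 on all arrays, so each had been scaled before deposit and differences are relative to the whole array. GI, AGL24, SNZ and the gene lists were chosen with earlier results of these data known.

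Of 22810 probe sets 64 controls were set aside; 13513 had 1 gene in the platform annotation, 503 several and 8730 none. Names were checked in a RefSeq gene table (TAIR10.1), where 13436 matched; a list gene was used where its symbol matched there. No coordinates are given because no build is named for the probes, and no sequences were used here. Signals were log2-transformed; probe sets with a mean log2 signal under the 40th percentile (6.49) were left out, which left 13648. A mean per group was fitted with limma 3.58.1 in R 4.3.3 (lmFit, eBayes with an intensity trend), with two-sided p-values adjusted by Benjamini-Hochberg. The mid-parent level was the log2 of the linear mean of both parents' fitted means, with a delta-method standard error; mid-parent signals in the text are means of the 2 linear group means. F1 was beyond both parents by the larger of its 2 p-values. The script was tested on simulated data. Named genes were GI, AGL24 and SNZ, list genes that passed the threshold or whose list had 3 or fewer tested, the relative SMZ, and the 5 genes with the highest r to each; the organ markers are lists of their own. Alternatives were quantile normalization, median centring, no filter, a 60th-percentile filter, a floor of 50, no trend, robust eBayes, only the groups compared, the replicate block, the mean of logs and leaving out each array.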

Additional observations from a re-analysis of the deposited data

How the results depend on the processing

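Over all alternatives 0 of 337 values for GI, AGL24, SNZ and the counts changed direction with a call, and 325 kept their side of the threshold or stayed within the spread between replicates (counts within 1.5 times). AGL24 has no value with the 60th-percentile filter, which it did not pass. Leaving out 1 array gave, for C24 against Col, AGL24 at -0.87 to -0.61; for F1 against Col, GI at 0.45 to 0.66, AGL24 at -0.97 to -0.78 and 999 to 1517 probe sets called, the lowest without Col replicate 2; for F1 against C24, SNZ at -0.62 to -0.33; against the mid-parent, 284 to 420 probe sets called, the lowest without F1 replicate 3. The position of AGL24 ran from 1.01 to 1.31. Without an intensity trend 264 probe sets differed from the mid-parent (450 with it) and 39 lay beyond both parents (69 with it); the cause was not tested. Signals near the filter, such as those of SMZ, limit what can be separated.

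The replicate numbers were tried as a block. Deviations from the group means correlated at -0.00147 to 0.117 between arrays of the same number, above 0.1 in 4 of 9 pairs. Of 18 matches of an array to another group, 16 were best with its own number, a hint from the data and not the design. The 18 matches are not independent, since deviations cancel within a group and each pair of arrays counts from both sides. Their number was not tested. With the replicate block 4471 probe sets were called for C24 against Col, 1844 for F1 against Col, 2255 for F1 against C24, 595 against the mid-parent and 79 beyond both parents. It changed no call of GI, AGL24 or SNZ; their adjusted p for C24 against Col was 0.000292, 0.00906 and 0.00672.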
